A study of Mus musculus with 4 samples.

Results

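The 10 genes described here encode receptors and related proteins of Kupffer cells, the resident macrophages of the liver. They are Marco, Cd163, Clec4f, Vsig4, Timd4, Cd5l, Folr2, Clec1b, Slc11a1 and Adgre1, taken by name from the 22180 genes that the array table measures with a probe set paired with a single symbol. They were selected on their measured KO minus WT differences as well as on their cell type, with Marco and Cd163 singled out against Clec4f and Vsig4, so their differences are given as a description, and calls of the fit across all genes support nothing about them. Each gene had 1 such probe set, and all 10 passed the filter that kept 12458 genes, a mean level no lower than the table median of 0.54 on the log2 scale. The label of the set holds only in part, because Cd5l is a secreted protein and Slc11a1 a transporter of the phagosome membrane.

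RNA came from livers of male mice, either wild type (WT) or with a knockout (KO) of Nrg4, the gene of the secreted growth factor neuregulin 4. Both genotypes were fed a steatohepatitis (NASH) diet for 20 weeks, which began at 3 months of age, and all livers were collected from fed animals. Each of the 4 Affymetrix Mouse Gene ST 2.1 arrays held a pool of RNA, with 2 pools per genotype, so that no group on a control diet stands beside them. The sources used here do not give the number of animals in a pool, the knockout allele or the strain. Pools of several animals hide the spread between animals.

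Kupffer cells line the liver sinusoids, where they take up bacteria, dying cells, old erythrocytes and modified lipoproteins from portal blood. Their identity depends on transcription factors such as LXR-alpha (Nr1h3), Id3 and SpiC, and on signals from neighbouring endothelial, stellate and hepatic cells. In steatohepatitis resident Kupffer cells can be lost and replaced by cells that derive from blood monocytes, which acquire some resident markers early and others, such as Timd4, late. Marco and Cd163 belong to the scavenger receptors with a cysteine-rich domain, a family that also holds the secreted protein Cd5l. Clec4f and Clec1b are C-type lectins, and Vsig4 and Timd4 carry immunoglobulin-like domains.

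The array medians lay between 0.52 and 0.64, and the values ran from -1.12 to 11.9. Across tested genes the pools of a genotype correlated at 0.979 (WT) and 0.975 (KO), and pools of different genotypes at 0.966 to 0.973, which are correlations over genes and not over replicates. Nrg4 was at 2.54 and 2.30 in the WT pools and at 0.93 in both KO pools. In KO pool 1 the platelet marker Pf4 and the complement receptor C5ar1 had the same value (0.93231), the latter gene named after its value was seen. Whether the probes of Nrg4 lie in the deleted part is not known here. By limma 6 of the 12458 tested genes, or 0.0482%, passed an adjusted p of 0.05 (0.0241% higher and 0.0241% lower in KO), and none of the 10 genes was among them. A limma fit whose variance follows intensity called 136 genes, or 1.09%, and 1 of the 10, Marco, on the lower side. Nrg4 itself passed in neither of these fits (limma, adjusted p of 0.181 and 0.0594). An exact two-sided permutation test of 2 pools against 2 cannot give a p below 0.333. The bulk RNA holds every cell of the liver, so fewer cells of a type and less RNA per cell cannot be told apart.

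The 250 bases before the annotated start are shown for the 4 genes whose differences are set side by side below, from RefSeq on build GRCm38.p6, 5′ to 3′ on the strand of the gene. Capitals mark matches on either strand to GAGGAA, a core of sites of the macrophage factor PU.1, to AGGTCA, the hexamer of nuclear receptors such as LXR, and to AGAACA, a hexamer of the glucocorticoid receptor.
Marco, chr1:120505025-120505274, minus strand: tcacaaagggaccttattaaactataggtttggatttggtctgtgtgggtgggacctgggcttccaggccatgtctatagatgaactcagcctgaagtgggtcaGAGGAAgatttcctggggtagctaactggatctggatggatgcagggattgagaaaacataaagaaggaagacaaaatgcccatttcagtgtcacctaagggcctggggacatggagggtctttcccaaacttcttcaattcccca
Cd163, chr6:124304401-124304650, plus strand: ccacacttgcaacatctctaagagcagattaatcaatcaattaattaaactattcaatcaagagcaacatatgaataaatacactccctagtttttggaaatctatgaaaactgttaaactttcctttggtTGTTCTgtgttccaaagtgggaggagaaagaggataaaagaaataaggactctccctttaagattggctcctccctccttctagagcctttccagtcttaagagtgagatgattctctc
Clec4f, chr6:83656117-83656366, minus strand: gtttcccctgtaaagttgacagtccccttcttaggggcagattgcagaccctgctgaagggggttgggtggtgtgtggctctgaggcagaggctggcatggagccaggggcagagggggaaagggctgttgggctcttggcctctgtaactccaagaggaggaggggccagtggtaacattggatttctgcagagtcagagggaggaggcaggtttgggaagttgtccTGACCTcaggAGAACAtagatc
Vsig4, chrX:96293439-96293688, minus strand: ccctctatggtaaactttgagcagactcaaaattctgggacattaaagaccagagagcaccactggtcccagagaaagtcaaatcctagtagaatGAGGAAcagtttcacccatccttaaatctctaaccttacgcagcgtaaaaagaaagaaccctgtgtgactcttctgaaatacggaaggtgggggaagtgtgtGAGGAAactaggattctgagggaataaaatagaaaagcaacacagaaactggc
The Marco window held 1 match to the PU.1 core and Vsig4 2. Cd163, a gene known to be induced by glucocorticoids, held 1 match to the glucocorticoid receptor hexamer. Clec4f held 1 match each to the nuclear receptor hexamer and the glucocorticoid receptor hexamer. No marked letters overlapped between motifs in these 4 windows. Among all 32851 promoter windows of this length, 23.3% held GAGGAA, 14% AGGTCA and 16.1% AGAACA. Windows were found for 9 of the 10 genes, of which 4, 3 and 3 held the respective motifs. These counts are per gene over any of its windows, of which Folr2 had more than 1, while the shares are per window. A match is a run of letters, not a measured binding site.

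Marco, a scavenger receptor with a collagen-like stalk that binds bacteria, particles and modified lipoproteins, had the lowest difference of the 10 genes. Its log2 level was 2.63 and 3.53 in WT, against 0.76 and 0.66 in KO. Both KO pools were low, and the lower WT pool lay far above them. KO minus WT was -2.37 ± 0.33 (SE of the limma fit, n = 2 pools each), which ranked as number 13 from the lowest of the 12458 tested genes. The KO mean lay 0.17 above the table median, and 53.7% and 53.5% of probe sets were below Marco in the KO pools against 76.8% and 83.0% in the WT pools. The KO values thus stood near the dim end of the scale. Whether differences are compressed there was not tested, and no fold is given.

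Cd163, the receptor that clears complexes of haemoglobin and haptoglobin, had the next lowest difference of the 10 genes. Its values were 2.93 and 2.47 in WT, against 1.24 and 1.11 in KO. Again the KO pools lay close together and well below both WT pools. The difference was -1.53 ± 0.23 (SE), number 38 from the lowest. The KO mean stood 0.63 above the table median. The value of WT pool 2 was shared by 63 probe sets of that array, which was the case for no other value of the 10 genes. Leaving out any 1 pool kept Marco between -2.82 and -1.92 and Cd163 between -1.76 and -1.30.

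**Figure D1:**
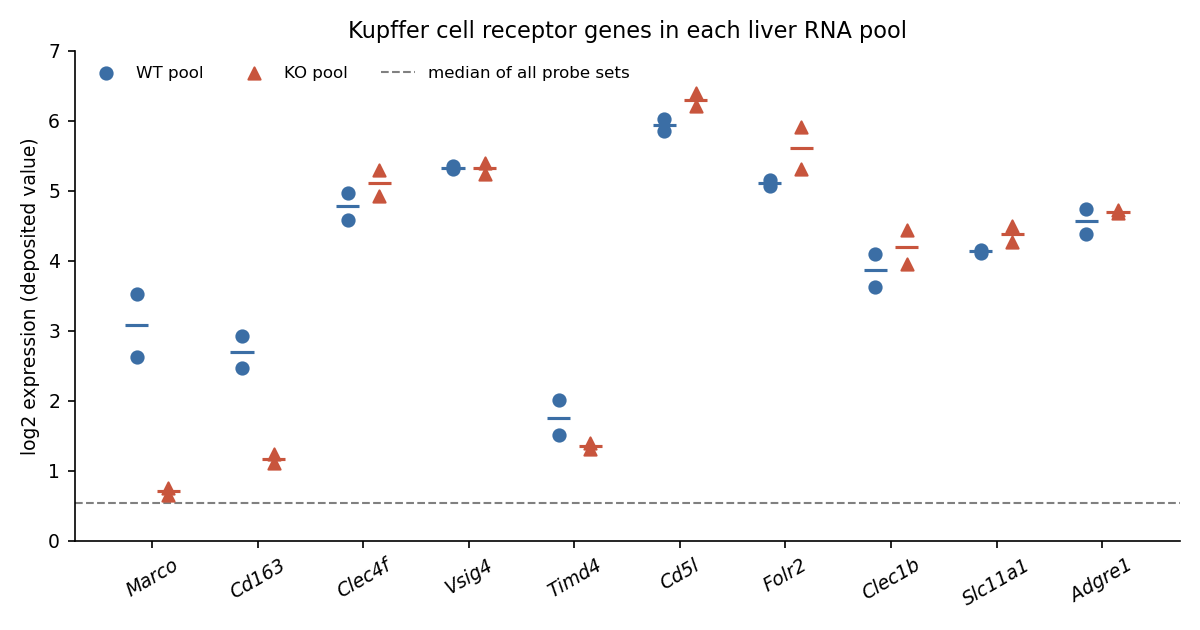
Deposited log2 expression of the 10 genes (y axis) in the 2 WT pools (circles) and 2 KO pools (triangles), with group means as short lines and the median of all probe sets, 0.54, as a dashed line. The KO pools of Marco and Cd163 sit between 0.66 and 1.24, below their WT pools at 2.47 to 3.53, while the pools of Clec4f and Vsig4 overlap.

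Clec4f, a lectin that in the mouse marks Kupffer cells almost alone, was at 4.58 and 4.97 in WT and 5.29 and 4.92 in KO. The pools of the genotypes overlapped, and the difference was 0.33 ± 0.24 (SE), or 0.13 without WT pool 1. Vsig4, the complement receptor that captures C3-coated particles from blood, was at 5.31 and 5.35 in WT and 5.24 and 5.40 in KO. The WT values lay between the KO values. Its difference was -0.01 ± 0.19 (SE), a sign that turned with quantile normalization (0.05). Both genes stood above 88.5% to 92.6% of the probe sets of every array, so RNA of both was present in all 4 pools. This holds for these genes only and not for the other Kupffer cell markers of the set.

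Set against these genes, Marco and Cd163 together differed by -2.11 on the log2 scale, since their mean difference was -1.95 and that of Clec4f and Vsig4 was 0.16. This gap, relative to the WT mean, was -2.10 in the first KO pool and -2.12 in the other. It was -0.01 and 0.01 in the WT pools, because Marco was 0.90 higher and Cd163 0.45 lower in WT pool 2 than in WT pool 1 and their mean evens this out. The single pairs spread more. Marco against Clec4f was at -2.84 and -2.56 in the KO pools and at -0.26 and 0.26 in the WT pools. Cd163 against Vsig4, the pair with the smallest gap, was at -1.37 and -1.67 in the KO pools and at 0.24 and -0.24 in the WT pools. In all 4 pairs the KO pools lay below both WT pools. These genes were chosen for this gap, so it supports no test.

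**Figure D2:**
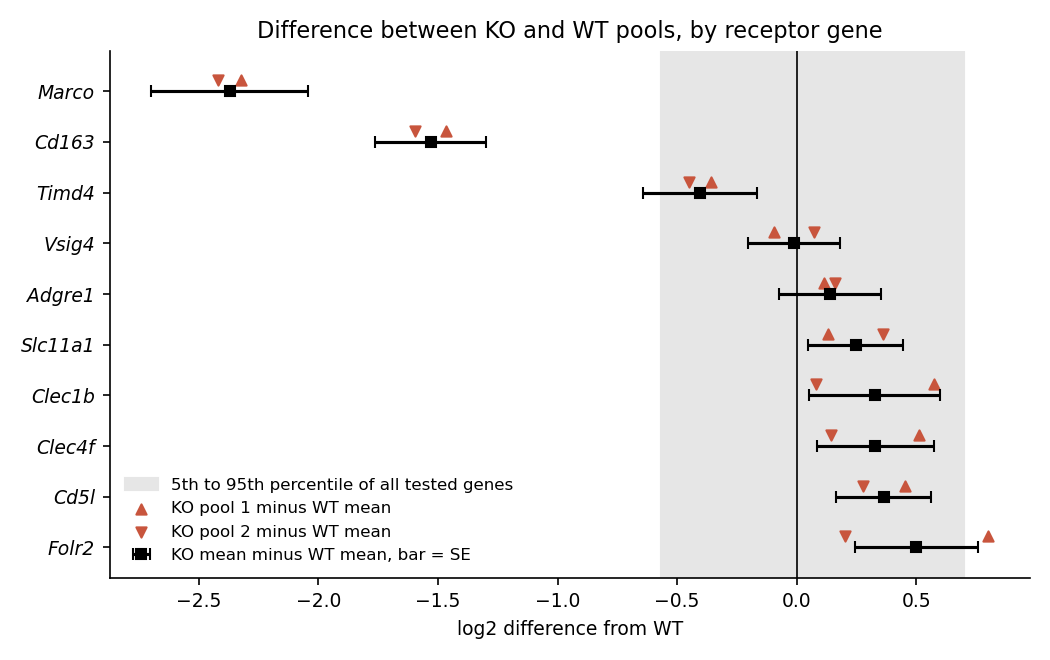
Log2 difference from the WT mean (x axis) for each of the 10 genes, with the KO mean as a square and its SE as a bar, KO pool 1 and KO pool 2 as triangles, and the 5th to 95th percentile of all tested genes (-0.57 to 0.70) shaded. Marco at -2.37 and Cd163 at -1.53 lie outside the shaded range, and the means of the other 8 genes lie inside it.

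Timd4, the phosphatidylserine receptor with which resident macrophages bind dying cells, was at 1.51 and 2.01 in WT and 1.40 and 1.31 in KO. The KO pools were lower, but the nearest pools of the genotypes lay close together. The difference was -0.40 ± 0.24 (SE), and -0.15 without WT pool 2. Its KO mean stood 0.81 above the table median.

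The secreted scavenger protein Cd5l, which binds circulating IgM, was at 5.86 and 6.02 in WT and 6.39 and 6.22 in KO. Both KO pools were the higher ones, by a mean of 0.36 ± 0.20 (SE), which is 1.29-fold. Folr2, the folate receptor of resident macrophages, was at 5.15 and 5.07 in WT and 5.91 and 5.31 in KO. KO pool 1 set most of its difference of 0.50 ± 0.26 (SE), or 1.42-fold, which was 0.20 without that pool. Folr2 had the highest difference of the 10 genes, and 90.1% of tested genes had a lower one. Slc11a1, which pumps divalent metal ions out of phagosomes, was at 4.12 and 4.15 in WT and 4.27 and 4.50 in KO. The KO pools lay above the WT pools by 0.25 ± 0.20 (SE), or 0.13 without KO pool 2.

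Clec1b, the podoplanin receptor of Kupffer cells and platelets, was at 4.10 and 3.63 in WT and 4.44 and 3.95 in KO. The pools overlapped, and the difference of 0.33 ± 0.27 (SE) was 0.08 without KO pool 1. Adgre1 encodes the adhesion receptor by which mouse macrophages are commonly stained. It was at 4.39 and 4.74 in WT and 4.68 and 4.72 in KO, with both KO values between the WT values. Its difference was 0.14 ± 0.21 (SE), and -0.04 without WT pool 1.

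Over the set, 6 genes were above 0 and 4 below, with a median difference of 0.19, or 0.05 without WT pool 1, beside a median of 0.01 over all tested genes, 51.6% of which were above 0. The KO pools lay above both WT pools in Cd5l, Folr2 and Slc11a1 and below both in Marco, Cd163 and Timd4. Pools were separated in this way in 22.2% (higher) and 19.5% (lower) of all tested genes. The 8 genes other than Marco and Cd163 had a median of 0.29, from which Marco differed by -2.66 and Cd163 by -1.82.

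The spread between pools of a genotype was gene-specific. The WT pools differed most in Marco, by 0.90, a gap that 4.70% of tested genes exceeded, and least in Vsig4 and Slc11a1, by 0.04 each. In the KO pools Marco differed by 0.10 and Cd163 by 0.13, and the widest gaps were those of Folr2 (0.60) and Clec1b (0.49), both higher in KO pool 1. The median gap over the set was 0.37 between the WT pools and 0.17 between the KO pools, beside 0.23 and 0.26 over all tested genes.

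**Figure D3:**
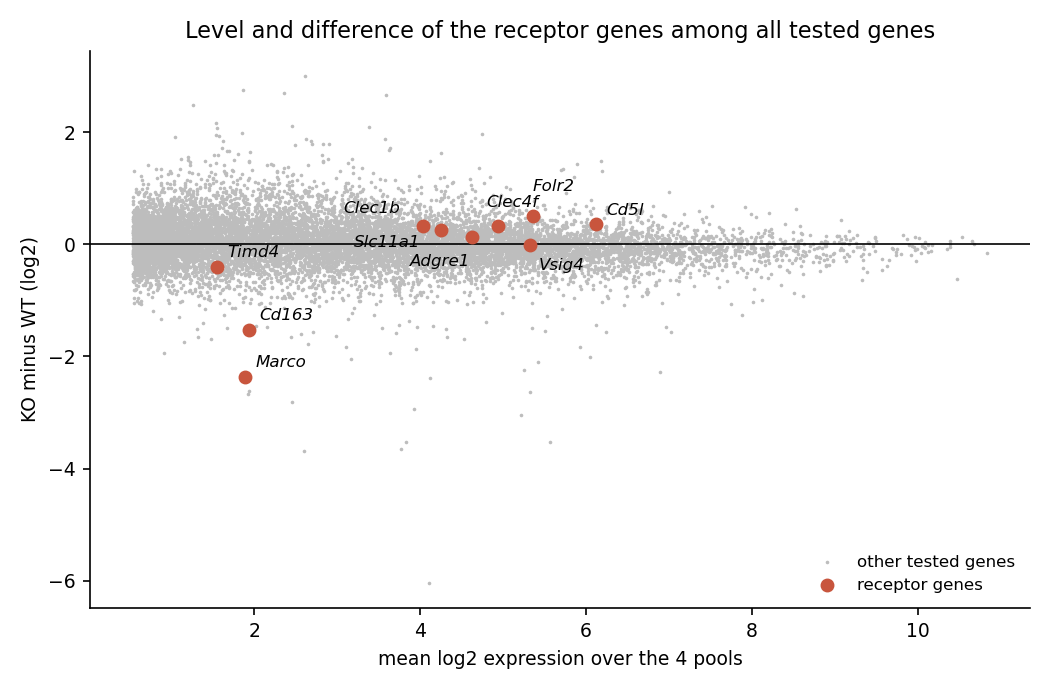
KO minus WT on the log2 scale (y axis) against the mean log2 expression over the 4 pools (x axis) for the tested genes (grey) and the 10 receptor set genes (red, named). Marco and Cd163 lie below the cloud, Timd4 lies inside it at a similar mean, and the other 7 genes lie farther right with differences from -0.01 to 0.50.

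Genes around the set were taken from 17 lists written with earlier results of these data known. Of their 199 tested genes outside the set, limma called none at an adjusted p of 0.05, the lowest value being 0.144, and 42 were higher and 7 lower in KO at an unadjusted p under 0.05. Over all tested genes those shares were 6.37% and 3.92%. With arrays centred on their medians the list genes at that level were 30 higher and 6 lower, and 54.2% in place of 61.9% of all genes at that level were higher. The fit whose variance follows intensity called 8 of the 199, against 1.09% of all tested genes. Those 8 were Bmp10, Pck1 and Cps1 on the lower side and Ighm, Cxcl16, Gas6, Mfge8 and Cd63 on the higher side. Genes below are therefore given by value and not as changed, except where that fit is named.

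Further genes of resident Kupffer cells did not move one way. Of 19 tested, 11 were above 0 and 8 below, with a median of 0.19 and a range from -0.85 to 0.87. At an unadjusted p under 0.05 by limma 4 were higher and 3 lower, but these 7 came down to 3 without WT pool 1 and to 2 without WT pool 2 or KO pool 2. The median was 0.11 without KO pool 2. C1qc and C1qb, chains of the complement opsonin C1q that macrophages secrete, were at 0.80 ± 0.20 and 0.64 ± 0.19 (SE), the second named after its value was seen. The scavenger receptor Scarf1 was at 0.87 ± 0.24. The complement component C6, which hepatocytes also express, was at -0.65 ± 0.19, with 6.29 and 6.36 in WT, against 5.69 and 5.66 in KO. Adjusted p-values of these 4 genes by limma lay between 0.318 and 0.377. Also on the lower side at that unadjusted level were Fcna at -0.85 ± 0.30 and Hpgd at -0.50 ± 0.20 (limma, adjusted p of 0.436 and 0.481). Both were named after their values were seen.

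The transcription factors that keep Kupffer cell identity had a median of 0.01 over 11 tested genes, 7 above 0 and 4 below. The MiT family factor Tfec was at -0.64 ± 0.22 (SE; limma, adjusted p = 0.431), with KO pools at 1.26 and 1.28 below WT pools at 1.70 and 2.12. SpiC (Spic), which is induced by haem, was at -0.45 ± 0.22 and PU.1 (Spi1) at 0.41 ± 0.19. Nr1h3, the LXR-alpha gene, and Id3 were at 0.00 and 0.36, and were chosen after their values were seen.

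Among signals of the Kupffer cell niche 13 of 16 tested genes were above 0 and 3 below, with a median of 0.30. The largest difference was that of Bmp10, a ligand of the endothelial receptor ALK1 that also acts on Kupffer cells. Bmp10 was at 3.15 and 3.37 in WT and 0.22 and 0.97 in KO, a difference of -2.66 ± 0.30 (SE; limma, adjusted p = 0.144), and it passed with a variance that follows intensity (adjusted p = 0.0101). Its KO pools stood on both sides of the table median. Csf2ra, a chain of the GM-CSF receptor, was at 0.89 ± 0.23 and Tgfbr2 at 0.76 ± 0.20. The growth factor Csf1, its receptor Csf1r and the second ligand Il34, chosen after their values were seen, were at 0.39, 0.38 and -0.03.

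**Figure D4:**
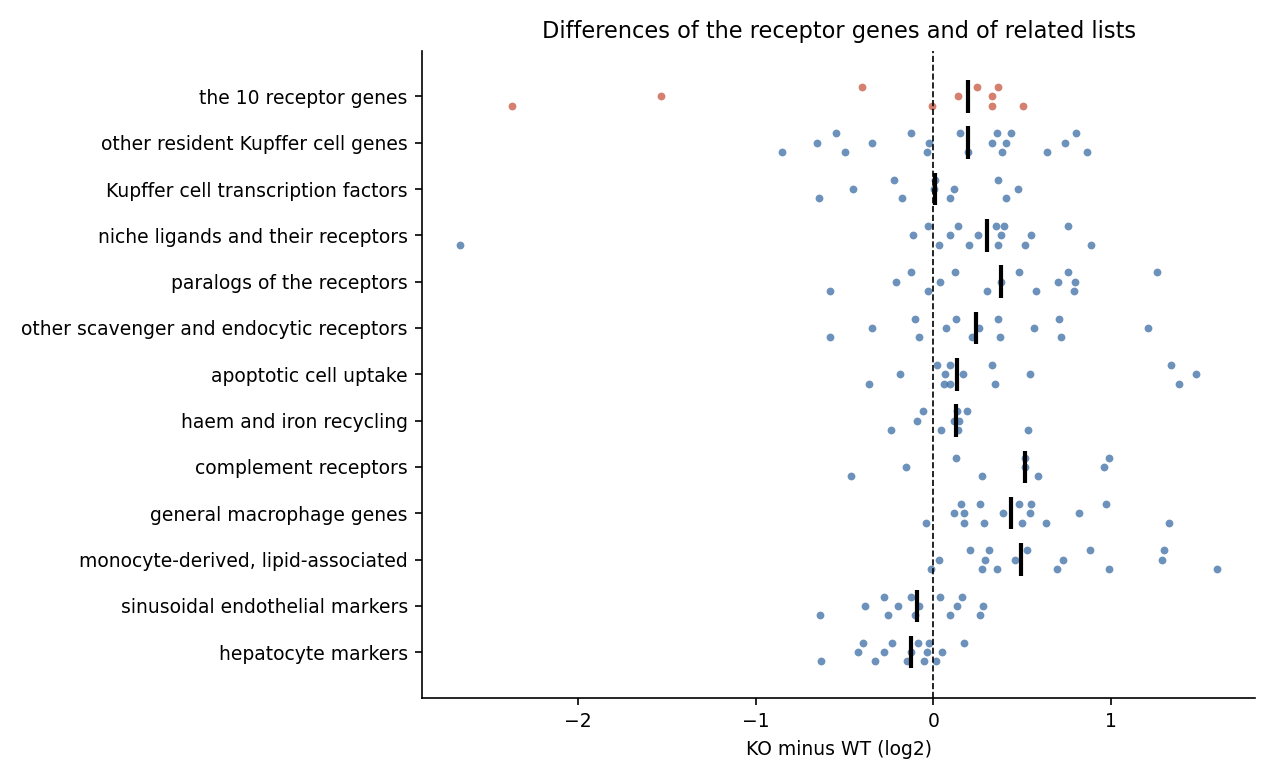
KO minus WT on the log2 scale (x axis) of each tested gene (dots) in the 10 receptor set genes and 12 related lists (rows), with the list median as a black bar. Marco and Cd163 stand apart on the left of the top row, Bmp10 stands apart in the niche row, and the medians run from -0.13 in hepatocyte markers to 0.51 in complement receptors.

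Ligands and partners of the 10 proteins were measured in the same pools. Haptoglobin (Hp) and haemopexin (Hpx), the plasma carriers of haemoglobin and haem, were both at -0.01, Pdpn, the ligand of Clec1b, was at -0.03, and Adam17, the protease that sheds Cd163, was at 0.23; these 4 genes were chosen after their values were seen. Ighm, the IgM heavy chain to which Cd5l binds, was at 5.01 and 5.08 in WT and 6.40 and 6.32 in KO. Its difference was 1.32 ± 0.19 (SE; limma, adjusted p = 0.181), and it passed with a variance that follows intensity (adjusted p = 0.00437). Under the alternatives that kept all pools the difference of Ighm lay between 0.77 and 1.37. Jchain, which joins IgM into polymers, was at 1.19 ± 0.26. The list held 10 tested genes, 6 above 0 and 4 below, with a median of 0.20, or 0.09 without KO pool 1, and C3 was not matched to a measured gene.

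Relatives of the 10 proteins had a median of 0.38 over 15 tested genes, 11 of them above 0 and 4 below, and of 0.23 without WT pool 2. The scavenger receptor Scara3 was at 1.26 ± 0.28 (SE), the beta-glucan receptor Clec7a at 0.75 ± 0.22 and the TIM family member Havcr2 at 0.80 ± 0.31 (limma, adjusted p between 0.297 and 0.473), the last at 0.40 without KO pool 2. Msr1, the class A scavenger receptor most similar in function to Marco, was at 0.58 and Scara5 at -0.58, both chosen after their values were seen. Other scavenger and endocytic receptors had a median of 0.24 over 14 tested genes, 10 above 0 and 4 below, and of 0.14 without KO pool 2. Cxcl16, a chemokine that also binds oxidised lipoprotein, was at 1.20 ± 0.21 (limma, adjusted p = 0.233, and 0.0197 with a variance that follows intensity), Cd68 at 0.72 ± 0.28 and the Fc receptor Fcgr1 at 0.71 ± 0.34. Cd68 was at 0.37 without WT pool 2, and Fcgr1 at 1.08 without KO pool 2, 0.33 without KO pool 1 and 0.40 without WT pool 1. No tested gene of these lists was lower than -0.58, beside -2.37 for Marco and -1.53 for Cd163.

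The functions in which the 10 proteins take part were described by further lists. Uptake of dying cells, the task of Timd4, had a median of 0.13 over 14 tested genes, 12 above 0 and 2 below. Without any 1 pool this median lay between 0.03 and 0.25. Leaving out each pool moved it by at least its pooled SD between pools of a genotype. Its bridging proteins Gas6 and Mfge8 were at 1.33 ± 0.19 and 1.48 ± 0.24 (SE; limma, adjusted p of 0.181 and 0.219), and both passed with a variance that follows intensity (adjusted p of 0.00437 and 0.0216). Elmo1, which activates Rac in engulfment, was at 1.38 ± 0.25. Haem and iron recycling, the task that Cd163 feeds, had a median of 0.12 over 10 tested genes, 7 above 0 and 3 below, within a range from -0.24 to 0.53, and leaving out WT pool 1 put the median at -0.005, leaving out KO pool 2 at 0.05. Heph, a copper ferroxidase, was at 0.53 ± 0.28, Slc25a37 at -0.24 ± 0.21 and Blvrb at 0.14 ± 0.19. Single pools moved each of them, Heph to 0.17 without WT pool 2 and 0.89 without WT pool 1, Slc25a37 to -0.07 without KO pool 1 and -0.41 without KO pool 2, and Blvrb to 0.08 without WT pool 2. No gene of this list had an unadjusted p under 0.05 by limma, nor did any pass with a variance that follows intensity. Complement receptors other than Vsig4 had a median of 0.51 over 9 tested genes, 7 above 0 and 2 below, with the integrin chains Itgb2 and Itgax at 0.96 ± 0.26 and 0.99 ± 0.28 and the C3a receptor C3ar1 at 0.59 ± 0.21 (limma, adjusted p between 0.338 and 0.433), Itgax being at 0.65 without KO pool 1.

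Cell type markers were read beside these values, and their part in them was not tested. General macrophage genes had a median of 0.44 over 16 tested genes, 15 above 0 and 1 below, and their mean level was 4.26 and 4.28 in WT, against 4.75 and 4.71 in KO. Relative to that median Marco was at -2.81, Cd163 at -1.97, Timd4 at -0.84, Vsig4 at -0.45 and Folr2 at 0.07. Monocyte-derived and lipid-associated macrophage genes had a median of 0.49 over 16 tested genes, 15 above 0 and 1 below, and a mean level of 2.33 and 2.44 in WT and 2.92 and 3.06 in KO. Cd63 was at 0.98 ± 0.20 (SE; limma, adjusted p = 0.269, and 0.033 with a variance that follows intensity). Sinusoidal endothelial markers, a cell type that also expresses several scavenger receptors, had a median of -0.09 over 14 tested genes, 6 above 0 and 8 below, or 0.05 without KO pool 1. Hepatocyte markers had a median of -0.13 over 15 tested genes, 3 above 0 and 12 below, or -0.21 without KO pool 2, with a mean level from 8.88 to 9.12 in the 4 pools. Stellate cell markers had a median of 0.18 over 10 tested genes, 8 above 0 and 2 below, which was 0.37 and 0.34 without WT pool 1 and KO pool 1, and 0.08 and 0.09 without WT pool 2 and KO pool 2. Pdgfrb, the PDGF receptor of these cells, was at 3.13 and 2.90 in WT and 4.21 and 4.10 in KO, a difference of 1.14 ± 0.20 (SE; limma, adjusted p = 0.240). The globin Cygb was at 4.48 and 4.42 in WT and 5.25 and 5.40 in KO, a difference of 0.88 ± 0.19 (SE; limma, adjusted p = 0.297).

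Platelets share Clec1b with Kupffer cells, and neutrophils share Slc11a1. Of 7 measured platelet markers 3 lay below the filter on dim genes, and their mean level was 0.64 and 0.65 in WT and 0.67 and 0.60 in KO, close to the table median of 0.54. Of 10 neutrophil markers 9 lay below that filter, with a mean level from 0.24 to 0.42 over the 4 pools. Of the 4 platelet markers above that filter, 2 had a difference above 0 and 2 below. The platelet chemokine Ppbp was at 1.51 and 2.14 in WT and 0.89 and 1.25 in KO. The platelet marker Gp9 went the other way, at 0.29 and 0.47 in WT and 0.86 and 1.13 in KO. The neutrophil receptor Csf3r, at 1.17 to 1.33 over the 4 pools, was also above that filter.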

How the data were processed

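The authors deposited log2 expression values per probe set, and the submitters' processing notes name oligo, RMA and limma, without versions or order. The sources used here do not give the zero point of this scale, the genome build or the annotation. Of 41345 probe sets, 23521 were paired with a single symbol, 1814 with several and 16010 with none by the platform annotation. The brightest single-symbol probe set was kept per gene. Genes whose mean was no lower than the table median were tested, KO against WT, with limma 3.58.1 in R 4.3.3 (lmFit, eBayes, residual degrees of freedom 2, prior 3.67), adjusted after Benjamini-Hochberg. The p-values measure the spread between pools only, and the number of arrays limits the precision. The procedure was run on simulated data whose variances came from limma's own fitted prior. Its criterion was the bias of the differences, so it does not show how reliable the calls are in these data. The 10 genes, the lists and the motifs were chosen with earlier results of these data known. Besides the 10 genes, the text names any called gene of a list, otherwise at most the 3 with the smallest p, and says where another was chosen after its values were seen. Alternatives were quantile normalization, centring, other filters, the mean of probe sets, other variance models (statmod 1.5.0 for the robust one), a replicate block and leaving out each pool. Scan dates and slides were not analysed here.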

Additional observations from a re-analysis of the deposited data

How the results depend on the processing

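The count of 6 called genes was 136 with a variance that follows intensity, 2 with the replicate number as a replicate block, and 0 to 0 without any 1 pool, where 906 to 1314 genes had an unadjusted p under 0.05 by limma. It stayed between 6 and 8 under the other 6 settings. Pools with the same number did not deviate together (r = -0.04 over genes), so the number is not taken as a pairing. Each number held 1 pool of either genotype, so the block cannot change a difference and is no check on those of the 10 genes. The median difference of the 10 members of the set was 0.053 without WT pool 1, 0.11 without KO pool 1, 0.12 without KO pool 2 and 0.18 without WT pool 2. The gap of Marco and Cd163 against Clec4f and Vsig4 was -2.20 with quantile normalization and lay between -2.12 and -2.10 without any 1 pool. That range is narrow because shifts of the single genes offset each other in the gap. Marco alone lay between -2.82 and -1.92 and Cd163 between -1.76 and -1.30. Under quantile normalization and median centring the 10 genes kept their signs except Vsig4, and the difference of Marco lay between -2.42 and -2.41. Without 1 pool Vsig4 lay between -0.09 and 0.07 and Adgre1 between -0.04 and 0.31. List medians that crossed 0 without 1 pool were those of transcription factors (-0.06 to 0.09), haem and iron recycling (-0.005 to 0.14), sinusoidal endothelium (-0.11 to 0.05), platelets (-0.20 to 0.09) and lymphocytes (-0.22 to 0.33). The median for uptake of dying cells was 0.03 without WT pool 1 and 0.34 where dim genes were filtered more strictly, as was 0.79 for monocyte-derived macrophages, and that for stellate cells lay between 0.08 and 0.37 without any 1 pool. Of 49 list genes named by the rule, 8 passed with a variance that follows intensity and none under another setting, and none changed sign. Values near the table median bound what can be seen of Marco, Cd163 and Timd4 in KO.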

Other observations

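A further probe set was annotated to both Clec1b and the dendritic cell lectin Clec9a and was left out above. It was at 1.36 and 1.62 in WT, against 1.48 and 2.33 in KO, so that KO pool 2 was the high one and the genotypes overlapped. Its difference of 0.42 stood beside 0.33 for the probe set of Clec1b alone, whose higher KO value was that of KO pool 1.

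Of 9 measured lymphocyte markers 7 were tested, 3 above 0 and 4 below, with a mean level of 0.83 and 0.68 in WT, against 0.89 and 0.88 in KO, beside a table median of 0.54. The T cell receptor complex chain Cd3g was at 1.07 and the B cell receptor chain Cd79a at 0.52 (limma, adjusted p of 0.397 and 0.439), while Cd4 was at -0.40. Cd3e was at -0.42, Cd79b, the partner of Cd79a, at -0.16, Nkg7 at -0.02 and Cd8a at 0.36. These 4 were named after their values were seen, which completes the 7 tested.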
